A study of Homo sapiens with 6 samples.

Results

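SR proteins, the CLK and SRPK kinases that phosphorylate them, and hnRNPs are the main families of factors that choose splice sites. The 38 genes described here were taken by symbol, as rows of the deposited table that carry a member's name, and all 38 were found among 32322 gene rows. They comprise 14 SR proteins (SRSF1 to SRSF12, TRA2A and TRA2B), 6 SR protein kinases (4 CLK and 2 SRPK genes) and 18 hnRNPs, PTBP1 included. RNA was sequenced from cells titled MDA-MB-231, an established line of triple-negative breast cancer labelled as wild type, in 3 libraries of cells exposed to compound 28 at 500 nM over 4 h and in 3 libraries of DMSO controls, whose exposure time the labels do not give separately. By its title the series studies a degrader of CDK9, the kinase that frees paused RNA polymerase II. The comparison asks which of these transcripts differ between compound 28 and DMSO.

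SR proteins bind exonic enhancers through RNA recognition motifs and recruit the spliceosome through domains rich in arginine and serine. CLK kinases in the nucleus and SRPK kinases mainly in the cytoplasm phosphorylate those serines, which governs where SR proteins sit and how they act. The hnRNPs coat nascent RNA and often silence the sites that SR proteins favour. Many genes of these families adjust their own level by splicing in a poison exon or holding back an intron, and the gene-level counts used here do not separate such isoforms.

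Reads assigned to genes ranged from 37186728 to 54830987 in the DMSO libraries and from 28505897 to 34062330 in the compound 28 libraries. The cells went against their title: of the 9 markers listed for MDA-MB-231, CAV1, KRT7 and CDH11 had 0 to 5.03 normalized counts in every library. The 5 luminal breast genes in the table, low levels of which do not go against the title, summed to at most 1.09 CPM (reads scaled to 1000000 gene reads). The 10 myeloid markers, which include SPI1, FLT3, ELANE and LYZ, were all detected and summed to 1795 to 2382 CPM in DMSO and 1413 to 1543 with compound 28. The MDA-MB-231 list, carried by the widely expressed VIM and CD44, summed to 390.1 to 403 and 204 to 230.2, with 2 of its 9 genes at 0 reads in 5 of the 6 libraries. Both sums were lower in every compound 28 library, and their part in the results was not tested. On this CPM scale the typical gene was also lower (median log2 change -0.48). In normalized counts the myeloid markers were split. ELANE, MPO and ITGAM were higher in every compound 28 library, SPI1, CD33, CSF1R and CEBPE were lower, and PTPRC, FLT3 and LYZ overlapped. The cell line labels also differ between samples, the last of them reading MDA-MB-236, so the line is named here only as the titles give it. Whether replicates came from different cultures is not labelled, and p-values therefore measure a spread between libraries that may be technical.

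Of the 38 members, 14 rose, 15 fell and 9 were not called with compound 28 at an adjusted p under 0.05 (limma-trend on log2(normalized count + 1), Benjamini-Hochberg over the 18278 genes tested). That is 76.3% of the members, against 72.8% of all genes tested and 77.1% of the 3972 tested genes that averaged 50 CPM or more, so the share called is near the background. Among all genes tested 35.5% rose and 37.3% fell. By at least 2-fold, 5 members fell and 1 rose, where 23.1% of all genes tested fell and 21.1% rose. Of the 33 members that averaged 50 CPM or more, 13 rose (49.3% of all such genes) and 12 fell (27.8%), 0 of them rising (13.9%) and 3 falling (8.36%) by at least 2-fold. The groups did not overlap in 30 members, against 75.7% of all genes tested, and in 26 of the 33, against 79.3%. In bulk RNA a lower value may come from fewer cells of a type or less RNA per cell, and these cannot be told apart.

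Direction is set relative to the typical gene, whose median log2 change was -0.033 in the authors' normalization and 0.16 when upper-quartile factors were used. It was -0.48 with plain library sizes, -1.14 when ribosomal protein mRNAs set the scale and -1.47 when mitochondrially encoded mRNAs did, whose share of gene reads was 3.50% ± 0.320 in DMSO and 7.01% ± 0.417 with compound 28 (SD, n = 3). Of the 15 falls, 14 passed as lower in all 19 alternatives: SRSF2, SRSF3, SRSF5, SRSF6, SRSF7, SRSF8, SRSF10, CLK1, CLK4, HNRNPAB, HNRNPD, HNRNPH3, HNRNPL and HNRNPR. SRSF1, the other one, missed the threshold with upper-quartile factors alone (log2 change -0.20, adjusted p = 0.0749, limma; 4.66e-07 to 0.0749 over the 19). Of the 14 rises SRSF12 alone passed in every alternative that tested it, and the other 13 had log2 changes below 0 with mitochondrial mRNA and with ribosomal protein mRNA scaling. Every rise given below other than that of SRSF12 is therefore a rise against the typical gene in the authors' normalization.

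**Figure D1:**
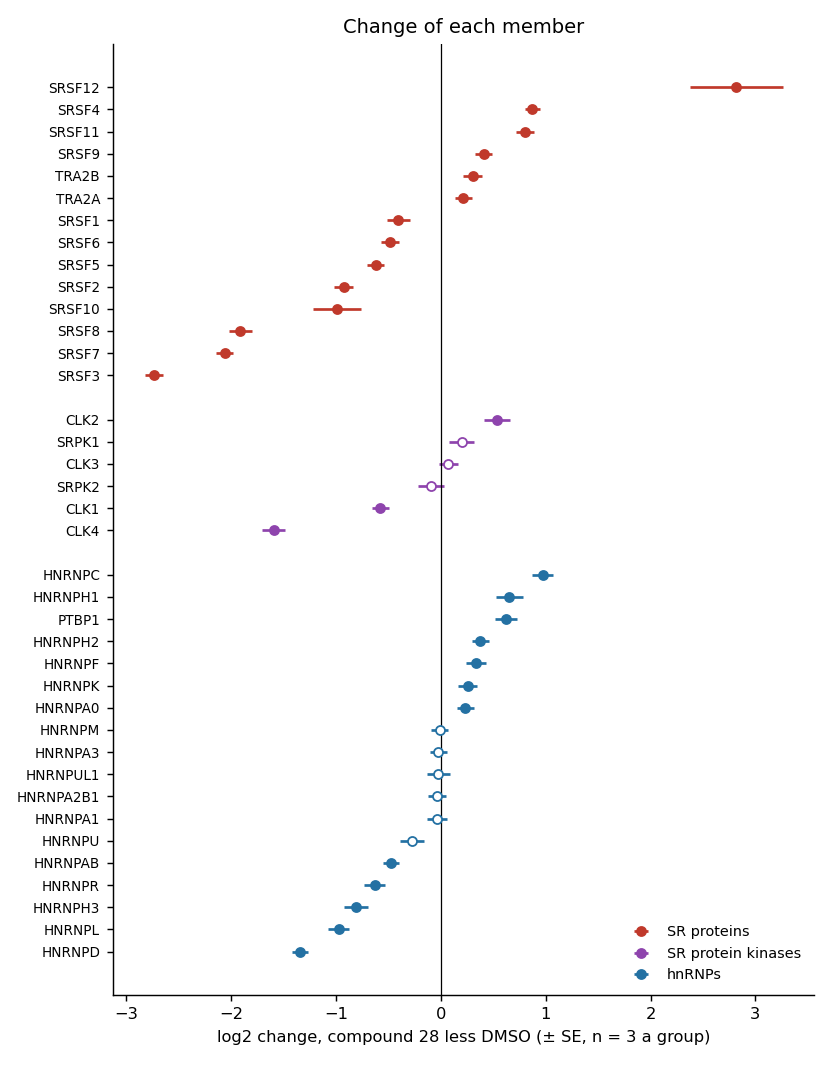
Log2 change of each of the 38 members, compound 28 less DMSO on the log2(normalized count + 1) scale, with SE as bars (n = 3 a group); filled circles were called and open circles were not. SR proteins run from -2.73 for SRSF3 to 2.82 for SRSF12, kinases from -1.59 to 0.53 and hnRNPs from -1.34 to 0.97.

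All 14 SR protein genes were called, 8 lower and 6 higher, and the groups overlapped in none of them. Among all genes tested 72.8% were called and 75.7% did not overlap (77.1% and 79.3% of those of 50 CPM or more). SRSF3, the smallest SR protein, which also links splicing to mRNA export, fell most. It had 17167, 17035 and 17397 normalized counts in the 3 DMSO libraries and 2623, 2816 and 2336 in the 3 compound 28 libraries. The compound 28 libraries were all far below the DMSO libraries, and the log2 change was -2.73 ± 0.09 (SE, n = 3; adjusted p = 1.4e-08, limma), a 6.65-fold fall. Scaled to exon length and to all gene reads (RPKM), the level of SRSF3 was 76.3 ± 0.377 in DMSO and 8.41 ± 0.926 with compound 28 (SD, n = 3). Among the 3972 genes of 50 CPM or more, 13 had a lower log2 change than SRSF3.

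SRSF7, the closest relative of SRSF3 and set apart from it by a zinc knuckle, fell next among the abundant members. Its normalized counts were 7783, 8009 and 7622 in DMSO and 1783, 1862 and 1974 with compound 28. The libraries of each group lay close together and far from the other group, and the log2 change was -2.06 ± 0.08 (SE, n = 3; adjusted p = 3.4e-08, limma). The ratio of SRSF3 to SRSF7 reads within a library, which no scaling can alter, was 2.13 to 2.28 in DMSO and lower, 1.18 to 1.51, in every compound 28 library.

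SRSF3 and SRSF7, whose falls lead the SR proteins, share a promoter feature that the choice of members did not use. The letters TATAAA, a core TATA box, were searched on the gene's strand with their first base 20 to 40 bases before an annotated start, in RefSeq promoter windows on GRCh38.p14. They were in 3 of 54 windows (5.56%) of the 35 members matched by symbol, against 2.30% of all 35116 windows. The 3 belong to SRSF3, SRSF7 (at 1 of its 2 annotated starts) and HNRNPAB. All 3 genes fell, as did 15 of the 38 members and 37.3% of all genes tested. This search near the start was not among those planned, and a link of the box to the falls was not tested. The 150 bases before each start are shown to let the position and surroundings of the box, in capitals, be compared. They lie at chr6:36594212-36594361 (+) for SRSF3, chr2:38751362-38751511 (-) for SRSF7 and chr5:178204383-178204532 (+) for HNRNPAB, each read 5′ to 3′ on the gene's strand and ending at the base before the start.
SRSF3: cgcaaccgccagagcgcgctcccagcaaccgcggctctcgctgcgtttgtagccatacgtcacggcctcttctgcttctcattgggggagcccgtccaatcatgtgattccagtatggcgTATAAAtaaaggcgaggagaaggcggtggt
SRSF7: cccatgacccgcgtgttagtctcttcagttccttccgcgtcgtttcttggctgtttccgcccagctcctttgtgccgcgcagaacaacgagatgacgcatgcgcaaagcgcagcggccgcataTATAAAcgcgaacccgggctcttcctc
HNRNPAB: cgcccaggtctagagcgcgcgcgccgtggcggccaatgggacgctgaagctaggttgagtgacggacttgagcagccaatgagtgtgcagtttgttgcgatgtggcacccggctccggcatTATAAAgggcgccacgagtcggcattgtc
The first T of the box is 30 bases before the start in SRSF3, 27 in SRSF7 and 29 in HNRNPAB. Anywhere in the 300-base window and on either strand, TATAAA was in 7 of the 54 member windows and in 11.5% of all windows, and its carriers there include the rising genes HNRNPC and SRSF11. CCAAT, of the CCAAT box, was in 38.9% of member windows and 34.6% of all, GGGCGG, the GC box, in 61.1% and 45.0%, and CACGTG, an E-box, in 14.8% and 7.26%, each on both strands. A match describes these letters and is not shown to be a used site.

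SRSF2, known as SC35 and recurrently mutated in myeloid neoplasms, and SRSF8, a retrogene copy of it, both fell, and reads in stretches they share may not be told apart. SRSF2 had 6889.9, 6547 and 5774 normalized counts in DMSO and 3503, 3419 and 3174 with compound 28 (log2 change -0.93 ± 0.09, SE, n = 3; adjusted p = 6.9e-06, limma). SRSF8 went from 1002 ± 29.7 to 266 ± 9.04 normalized counts (SD, n = 3), a 3.76-fold fall. The log2 ratio of SRSF2 to SRSF8 reads was 2.67 ± 0.10 in DMSO and 3.66 ± 0.08 with compound 28 (SD, n = 3). SRSF10, a splicing repressor when dephosphorylated, had 870.1, 416 and 533 normalized counts in DMSO and 275, 280.5 and 319 with compound 28. DMSO replicate 1 stood well above the other DMSO libraries, and the log2 change was -0.99 ± 0.23 (SE, n = 3; adjusted p = 0.0027, limma).

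SRSF1, the founding SR protein, had 7367, 7666 and 7659 normalized counts in DMSO and 5623, 4987 and 6674 with compound 28, while its relative SRSF9 went from 5578 ± 154 to 7418 ± 366 (SD, n = 3). The ratio of SRSF1 to SRSF9 reads was 1.31 to 1.42 in DMSO and 0.703 to 0.854 with compound 28. SRSF4, SRSF5 and SRSF6, long SR proteins that form a subfamily, also divided. SRSF5 (log2 change -0.62 ± 0.08) and SRSF6 (-0.49 ± 0.09) fell, and SRSF4 had 3944, 3880 and 3800 normalized counts in DMSO and 7247, 7151 and 6919.9 with compound 28, a log2 change of 0.87 ± 0.08 (SE, n = 3; adjusted p = 2.5e-06, limma). The ratio of SRSF4 to SRSF5 reads was 0.358 to 0.390 in DMSO and 1.02 to 1.05 with compound 28.

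SRSF11, an arginine-serine protein of early spliceosomes, has the highest mean CPM of the SR genes over the 6 libraries, although SRSF3 had more reads in each DMSO library. It had 11754, 11693 and 10302 normalized counts in DMSO and 20363, 19062 and 19522.5 with compound 28, a log2 change of 0.81 ± 0.09 (SE, n = 3; adjusted p = 1.3e-05, limma). TRA2B and TRA2A, the human counterparts of Drosophila transformer-2, rose by less, with log2 changes of 0.30 ± 0.09 (adjusted p = 0.0095) and 0.22 ± 0.08 (adjusted p = 0.037, limma). TRA2A missed the threshold in 7 alternatives, and in the authors' deposited table its adjusted p was 0.0593. SRSF12, a relative of SRSF10, was the only member near the floor of detection: 5, 4 and 4 reads in DMSO and 21, 14 and 23 with compound 28. Its ratio of mean normalized counts was 9.43, its fold on the log2(value + 1) scale 7.05 (adjusted p = 0.00019, limma), and its log2 change fell from 2.82 to 1.52 with a pseudocount of 10.

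**Figure D2:**
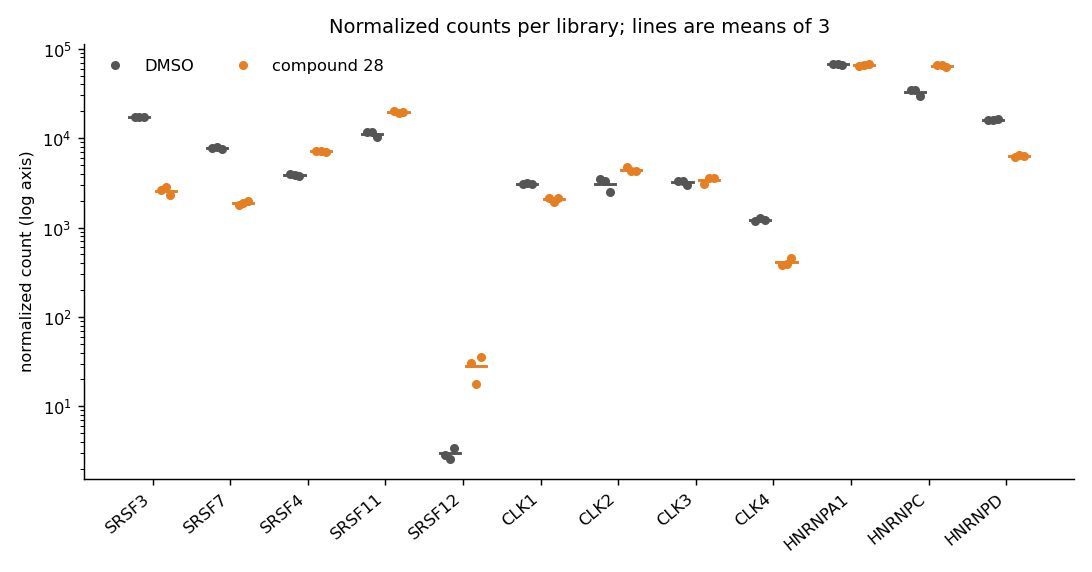
Normalized counts on a log axis for 12 members in each of the 6 libraries, with group means of 3 as lines. SRSF3, SRSF7, CLK1, CLK4 and HNRNPD lay lower in every compound 28 library than in any DMSO library, SRSF4, SRSF11, SRSF12, CLK2 and HNRNPC higher, and CLK3 and HNRNPA1 overlapped.

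Among the kinases 1 rose, 2 fell and 3 were not called, where 35.5% of all genes tested rose and 37.3% fell. CLK4 had 1198, 1285 and 1202 normalized counts in DMSO and 378, 389.9 and 455 with compound 28, with a log2 change of -1.59 ± 0.11 (SE, n = 3; adjusted p = 7.0e-07, limma). CLK1, its closest relative, had 3046, 3168 and 3046 and then 2146, 1943 and 2126, a log2 change of -0.58 ± 0.08 (SE, n = 3; adjusted p = 1.0e-04, limma). The reads of CLK1 were 2.47 to 2.54 times those of CLK4 in DMSO and 4.67 to 5.68 times with compound 28. CLK2 has the highest mean CPM of the kinase genes over the 6 libraries, although CLK3 had more reads in DMSO replicates 2 and 3. It had 3471, 3322 and 2485 normalized counts in DMSO and 4709, 4245 and 4335 with compound 28, with DMSO replicate 3 the lowest, and a log2 change of 0.53 ± 0.12 (SE, n = 3; adjusted p = 0.0027, limma). Plain library sizes ended the call of CLK2 (0.078 on the log2 scale, with an adjusted p of 0.591 from limma). Over the 19 alternatives its adjusted p ran from 2.23e-05, where mitochondrial mRNAs set the scale and CLK2 was lower, to 0.591.

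CLK3 (log2 change 0.074 ± 0.093), SRPK1 (0.20 ± 0.12) and SRPK2 (-0.092 ± 0.13; SE, n = 3 each) were not called, and their groups overlapped. SRPK1 passed as higher without DMSO replicate 3 (log2 change 0.32, adjusted p = 0.012, limma) and when upper-quartile factors were used (log2 change 0.40), and its adjusted p ran from 3.96e-05 to 0.503 over the alternatives, with signs of both kinds. The ratio of CLK2 to CLK1 reads was 0.816 to 1.14 in DMSO and 2.04 to 2.19 with compound 28.

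Of the 18 hnRNP genes 7 rose, 5 fell and 6 were not called. Among tested genes of 50 CPM or more, 49.3% rose and 27.8% fell. HNRNPA1, the best known exon-silencing hnRNP, has the highest mean CPM of all members over the 6 libraries, although HNRNPC had more reads in compound 28 replicates 1 and 2. It had 66812, 67913 and 65809 normalized counts in DMSO and 63438, 65041 and 67136 with compound 28. The groups overlapped, and the log2 change was -0.036 ± 0.094 (SE, n = 3; adjusted p = 0.74, limma). The related HNRNPA2B1 (log2 change -0.033) and HNRNPA3 (-0.023) were not called either, nor were HNRNPM (-0.011) and HNRNPUL1 (-0.023), beside -0.033 for the typical gene. All 5 were called lower with library sizes only and with mitochondrial and ribosomal protein scaling. With upper-quartile factors all 5 had log2 changes above 0, and HNRNPM was called higher (0.19, adjusted p = 0.0435, limma; 3.36e-07 to 0.959 over its alternatives). HNRNPA0, an intronless relative, rose slightly (log2 change 0.24 ± 0.08, adjusted p = 0.028, limma), a call lost when any of 4 libraries (DMSO replicates 1 and 2, compound 28 replicates 2 and 3) was left out.

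HNRNPC, which binds uridine tracts and keeps Alu-derived exons out of mRNA, had 34561, 34209 and 29649 normalized counts in DMSO and 65232, 65446 and 62060.0 with compound 28. That is the largest rise of an hnRNP, a log2 change of 0.97 ± 0.10 (SE, n = 3; adjusted p = 8.5e-06, limma). Reads on its 4 named pseudogenes, 3.54% of its own reads in all, summed to 1126 ± 65.9 normalized counts in DMSO and 2344 ± 291 with compound 28 (SD, n = 3). HNRNPCP2 carries most of that sum, and HNRNPCP1 went the other way, with 136, 130 and 69 reads in DMSO and 28, 32 and 12 with compound 28. Alignments that were not unique made up 11.2% ± 0.278 of all reads in DMSO and 20.8% ± 3.96 with compound 28 (SD, n = 3), and their part in the values of genes with near copies, HNRNPC, HNRNPA1 (33 named pseudogenes) and HNRNPA3 (12) among them, was not tested.

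HNRNPD, also called AUF1, which binds AU-rich elements and promotes mRNA decay, fell most among the hnRNPs. It had 16033, 15886 and 16329.5 normalized counts in DMSO and 6197, 6534 and 6319.9 with compound 28 (log2 change -1.34 ± 0.08, SE, n = 3; adjusted p = 1.8e-07, limma). Its relative HNRNPAB fell by less (log2 change -0.48 ± 0.08, adjusted p = 0.00028). Reads of HNRNPAB were 0.523 to 0.581 of those of HNRNPD in DMSO and 1.01 to 1.02 with compound 28. HNRNPDL, the third gene of that subfamily and not among the 38, went from 14025 ± 349 to 3578 ± 193 normalized counts (SD over 3 libraries), with a log2 change of -1.97 and an adjusted p of 3.7e-08 (limma).

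Related hnRNPs also moved in opposite directions. HNRNPH1, which binds runs of guanosine, had 34086, 40353 and 28328 normalized counts in DMSO and 55334, 53588 and 51226 with compound 28 (log2 change 0.65 ± 0.13, adjusted p = 0.00088, limma). HNRNPH2 (0.38) and HNRNPF (0.33) rose with it, whereas HNRNPH3 fell (-0.81 ± 0.11, adjusted p = 9.4e-05). The ratio of HNRNPH1 to HNRNPH3 reads was 6.39 to 6.84 in DMSO and 17.1 to 19.3 with compound 28. PTBP1, also hnRNP I, which represses exons next to pyrimidine tracts, had 17421, 17474 and 22073 normalized counts in DMSO and 29384, 29122 and 28570.2 with compound 28 (log2 change 0.62 ± 0.11, adjusted p = 0.00036, limma). HNRNPL, a CA-repeat binder with like RNA recognition motifs, fell (log2 change -0.97 ± 0.10, adjusted p = 9.9e-06), and the ratio of PTBP1 to HNRNPL reads went from 2.43 to 2.71 in DMSO to 6.75 to 8.46 with compound 28.

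HNRNPK, which binds cytidine-rich RNA, rose a little (log2 change 0.26, adjusted p = 0.022, limma), a call lost when any library but DMSO replicate 3 was left out. HNRNPR fell (log2 change -0.63 ± 0.10, adjusted p = 2.0e-04), as did its relative SYNCRIP, which is not among the 38 (-0.90). HNRNPU, a nuclear scaffold protein, had 47514, 54639 and 62965 normalized counts in DMSO and 45468, 43044 and 47109 with compound 28. Its groups did not overlap, yet the DMSO libraries were widely spread and it was not called (log2 change -0.28 ± 0.12, adjusted p = 0.054, limma). Leaving out a library moved that value between -0.38 (without DMSO replicate 1) and -0.17 (without DMSO replicate 3). It passed as lower in 10 of 19 alternatives, whose adjusted p ran from 1.7e-06 to 0.53 over all 19, with an adjusted p of 0.0204 by edgeR's quasi-likelihood test and 0.03 with the replicate number as a block, and in the authors' deposited table its adjusted p was 0.0278.

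**Figure D3:**
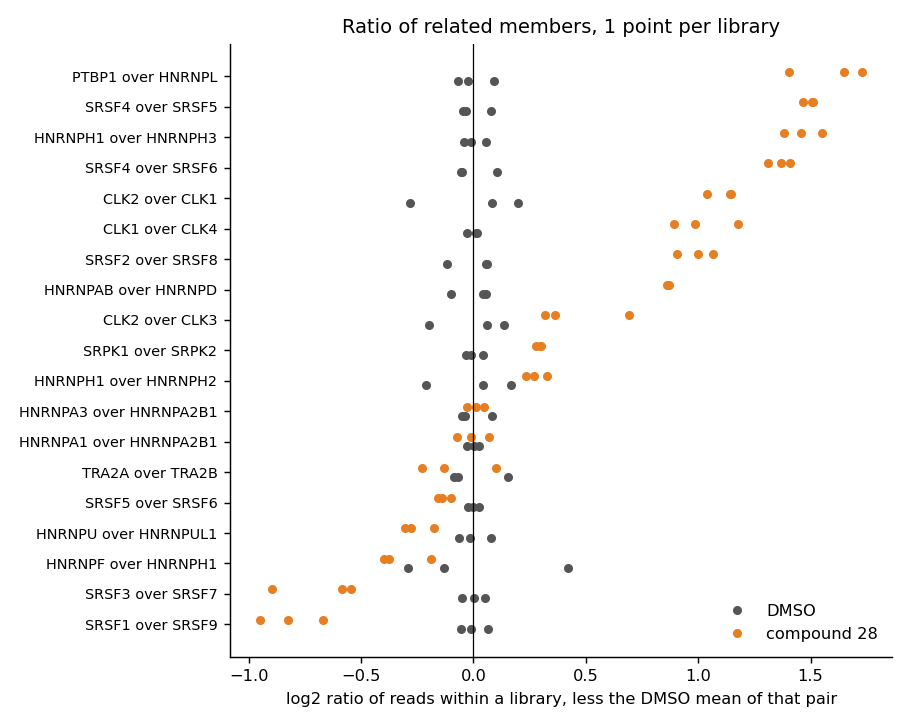
Log2 ratio of reads of related members within each library, less the DMSO mean of the pair, for 19 of the 20 pairs (SRSF12 over SRSF10, with a difference of 4.18, is off the scale and not drawn). SRSF4 rose against SRSF5 and SRSF6, PTBP1 against HNRNPL and HNRNPH1 against HNRNPH3 in every compound 28 library, while HNRNPA1 and HNRNPA3 kept to HNRNPA2B1.

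Such ratios of related genes were taken for 20 pairs, chosen for relatedness after the values were seen. In 16 pairs the groups did not overlap. Each had an exact two-sided permutation p of 0.1, the smallest that 3 libraries against 3 allow (0.125 adjusted over the 20 pairs). Taken singly, 75.7% of all genes tested and 79.3% of those of 50 CPM or more did not overlap. The share over unrelated pairs was not computed, so the count of 16 is not a result about related genes. The ratio of HNRNPA1 to HNRNPA2B1 reads was 1.70 to 1.77 in DMSO and 1.65 to 1.82 with compound 28, and overlapped, as did TRA2A over TRA2B, HNRNPA3 over HNRNPA2B1 and HNRNPF over HNRNPH1.

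Between the 3 classes, the median log2 change was -0.45 for the 14 SR proteins, -0.0092 for the 6 kinases and -0.023 for the 18 hnRNPs. It was -0.033 for all genes tested and 0.23 for those of 50 CPM or more. No test was made of these medians, since genes of a class are not replicates. By library, the SR median of log2 values less each gene's DMSO mean was -0.45, -0.56 and -0.33 with compound 28 and lay between -0.040 and 0.037 in DMSO, and that of the hnRNPs lay between -0.047 and 0.040 in all 6 libraries. By at least 2-fold, 3 SR proteins of 14 fell and 1 rose, and 1 hnRNP of 18 fell and 0 rose, where 23.1% of all genes tested fell and 21.1% rose by as much (8.36% and 13.9% of those of 50 CPM or more). As a share of gene reads, SR proteins went from 0.304% ± 0.0132 to 0.184% ± 0.00437, kinases from 0.0454% ± 0.00177 to 0.0329% ± 0.000418, and hnRNPs from 1.27% ± 0.0480 to 1.01% ± 0.0128 (SD, n = 3 each). Such shares are on the scale of plain library sizes, where the typical gene also fell (median log2 change -0.48). On that scale the class medians were -0.90 for SR proteins, -0.46 for kinases and -0.48 for hnRNPs.

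**Figure D4:**
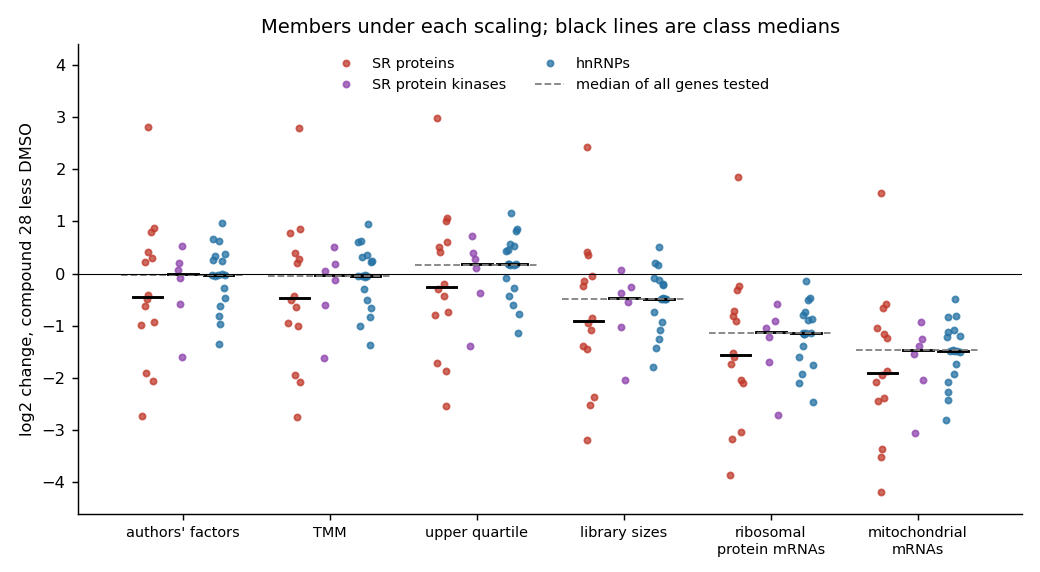
Log2 changes of the 38 members under 6 scalings, compound 28 less DMSO, with class medians as black lines and the median of all genes tested dashed. All members shift together, the hnRNP and kinase medians stay close to the median of all genes, and the SR median stays below it (-0.45 against -0.033 in the authors' normalization, -1.90 against -1.47 with mitochondrial scaling).

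**Figure D5:**
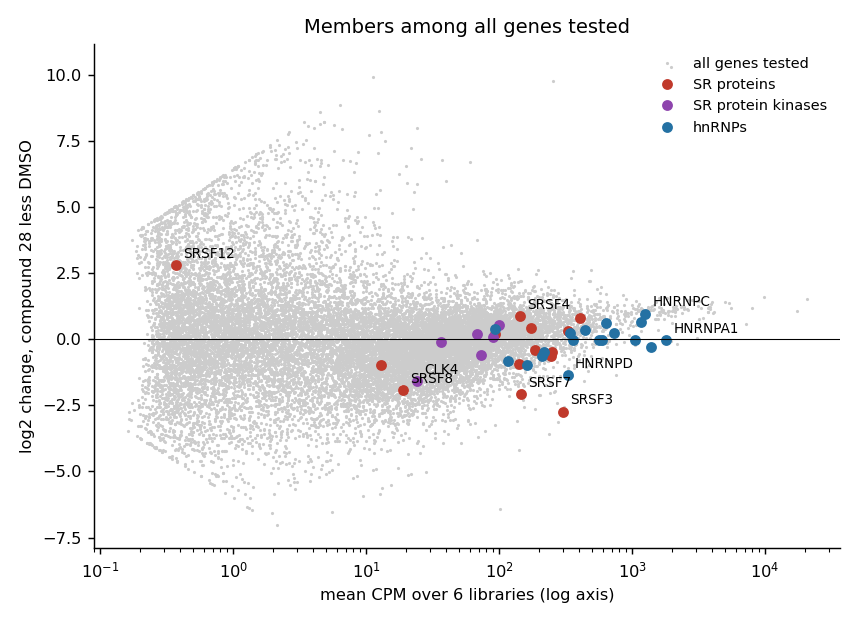
Mean CPM over the 6 libraries (log axis) against log2 change for all 18278 genes tested in grey and for the 38 members in colour. Most members lie among the abundant genes and near 0, SRSF3 and SRSF7 lie at the lower edge of genes of their abundance, and SRSF12 lies among the rarest genes.

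Most members were among the more abundant genes, as the plot of abundance against change shows. Across the 38 genes, Spearman's rho was 0.260 between mean CPM and log2 change and 0.337 between genomic span and log2 change, and over all tested genes with a RefSeq entry it was 0.00337 and 0.0152. These are descriptions across genes that share libraries and are not independent.

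Other genes of the splicing machinery were also split: of 110 tested in 5 context lists, 44 rose, 42 fell and 24 did not pass. Among all genes tested 72.8% were called, 35.5% higher and 37.3% lower, so these lists are near the background. In the core spliceosome 15 of 49 tested rose and 20 fell (median log2 change -0.067). SNRPD2, a protein of the Sm ring, rose by 0.96 on the log2 scale, and BCAS2, of the PRP19 complex, had 1086 ± 31.0 normalized counts in DMSO and 148 ± 42.4 with compound 28 (SD, n = 3), with a log2 change of -2.91 (adjusted p = 6.2e-07, limma). Falls of at least 2-fold were found for 7 of the 49 and rises of that size for 0. Among all genes tested 23.1% fell and 21.1% rose by as much, so the count of falls is not above that share. Of genes of 50 CPM or more 8.36% fell and 13.9% rose by as much. However, BCAS2, CDC5L, PLRG1, PRPF4, SLU7 and CWC15, all among the 7, averaged less than 50 CPM. Besides BCAS2 the falls of at least 2-fold include CDC5L (-2.34) and PLRG1 (-1.61), which belong to the same complex, and PRPF4 of the tri-snRNP (-2.13). The helicase gene DHX8 (-1.44) is another, and these examples were chosen after their values were seen. Other genes of both assemblies did not all fall. PRPF19 itself was not called (0.020), and the tri-snRNP genes PRPF6 (0.24), PRPF8 (0.49) and SNRNP200 (0.50) were called higher. EFTUD2 (-0.77) and SNRNP40 (-0.82), also of the tri-snRNP, were called lower, by less than 2-fold.

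SR-related proteins outside the SRSF family had 10 higher and 6 lower of 20 (median log2 change 0.24). RNPS1, which joins splicing to the exon junction complex, rose from 4054 ± 76.7 normalized counts in DMSO to 11123 ± 154 (SD, n = 3), by 1.46 on the log2 scale (adjusted p = 1.0e-07, limma), and LUC7L, a U1 snRNP partner, fell (-1.28). Other hnRNPs and relatives had 7 higher and 6 lower of 15 (median 0.062), with ELAVL1, the HuR protein that stabilizes AU-rich mRNAs, up by 1.42 on the log2 scale (adjusted p = 1.6e-07, limma) and HNRNPDL lowest. Among 11 other kinases, phosphatases and importers 5 rose and 4 fell (median 0.12). TNPO2, a transportin that carries hnRNPs into the nucleus, rose by 1.48, and PPP1CC, a catalytic subunit of protein phosphatase 1, had a log2 change of -1.93. Among 15 genes of nonsense-mediated decay, which removes poison-exon transcripts, 7 rose and 6 fell (median -0.017), with UPF1, its central helicase, up by 1.09 and SMG9 at -1.74.

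Some values carry limits of counting. In GENCODE release 29, 60.7% of the exon length of SRSF1, 46.2% of that of SRSF9 and 36.7% of that of SRSF2 also belong to other genes on either strand. On the same strand alone the shares were 56.6% for SRSF1, 0% for SRSF9 and 3.28% for SRSF2. The strand setting of the counting was not given, so reads of these genes and their neighbours may not be told apart. The authors' deposited table gives the same call for 36 of the 38 members, the exceptions being TRA2A and HNRNPU.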

How the data were processed

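The members and gene lists were chosen with earlier results of these data known. Stranded mRNA libraries were made from TRIzol-extracted RNA, per the labels' protocols. HTSeq, HISAT2, SAMtools, fastp and StringTie are named with the builds GRCh37 and hg19, per the submitters' processing notes; the strand setting is not given there. The authors deposited a normalized signal for each gene in each library. Its values behave as reads divided by 1 size factor per library: 100% of values above 0 were whole multiples of 1 step within 0.01 read, so reads were recovered. Beside it stand the authors' log2 fold change, its error and a test statistic (a score), and raw and adjusted p-values, per the file headers, used only where named. The 5 summary counters of HTSeq held 30.4% to 32.8% of reads in DMSO and 40.4% to 46.9% with compound 28 and were left out of totals and tests.

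The main test was limma-trend (limma 3.58.1, R 4.3.3) on log2(normalized count + 1), with a pseudocount of 1, the authors' normalization, the filter filterByExpr of edgeR 4.0.16 on recovered reads, and Benjamini-Hochberg adjustment over 18278 genes; calls were made at 0.05. The fit was also run on simulated data in which few genes changed, as many up as down, so that run does not bear on the choice of scaling. Fold changes of low genes are understated by the pseudocount. All members passed the filter. Members given in full were, in each class, the largest called rise and fall and the highest mean CPM, and in each context list the largest called rise and fall at 5 CPM or more; other genes were described after their values were seen. The count tests edgeR and DESeq2 1.42.0 on recovered reads, which called 6385 and 6667 genes higher and 6893 and 6464 lower, were alternatives, as were other scalings, pseudocounts and filters, a replicate block and leaving out each library. Exon lengths came from GENCODE release 29, on another build than the reads. Promoters came from RefSeq.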

Additional observations from a re-analysis of the deposited data

How the results depend on the processing

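Over 19 alternatives, 609 of 721 log2 changes of members kept their direction and side of the threshold, 20 were no longer called, 31 became called and 61 changed sign. Of the pseudocounts and filters, a pseudocount of 10 and the stricter filter (5 CPM) brought HNRNPU past the threshold, no filter lost TRA2A, and no other member's call changed.

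Scaling had the widest effect, on all genes as well as on the members. Of the 18278 genes tested, 4218 were called higher and 9302 lower with library sizes only. Mitochondrial mRNA scaling gave 1810 higher and 13885 lower, and ribosomal protein mRNA scaling 2228 and 12440. Upper-quartile factors gave 7568 and 5763. The member counts below stand against these. With library sizes only 4 members were called higher and 25 lower, by class 3 SR proteins, 0 kinases and 1 hnRNP higher and 4 kinases and 12 hnRNPs lower, with medians of -0.90, -0.46 and -0.48; signs changed for SRSF9 (-0.043), TRA2A (-0.24), TRA2B (-0.15), CLK3 (-0.38), SRPK1 (-0.25), HNRNPA0 (-0.22), HNRNPF (-0.12), HNRNPH2 (-0.076) and HNRNPK (-0.20). With mitochondrial mRNA scaling 1 member, an SR protein, was higher and 37 were lower (13 SR proteins, 6 kinases, 18 hnRNPs, and 0 kinases and 0 hnRNPs higher), with medians of -1.90, -1.47 and -1.48; signs changed for SRSF4 (-0.58), SRSF9 (-1.05), SRSF11 (-0.65), TRA2A (-1.24), TRA2B (-1.15), CLK2 (-0.92), CLK3 (-1.38), SRPK1 (-1.26), HNRNPA0 (-1.22), HNRNPC (-0.48), HNRNPF (-1.12), HNRNPH1 (-0.80), HNRNPH2 (-1.08), HNRNPK (-1.20) and PTBP1 (-0.84). With ribosomal protein mRNA scaling 1 member, an SR protein, was higher and 35 lower (6 kinases and 17 hnRNPs, with 0 kinases and 0 hnRNPs higher), with medians of -1.56, -1.13 and -1.14; signs changed for SRSF4 (-0.24), SRSF9 (-0.71), SRSF11 (-0.31), TRA2A (-0.90), TRA2B (-0.81), CLK2 (-0.59), CLK3 (-1.04), SRPK1 (-0.92), HNRNPA0 (-0.88), HNRNPC (-0.15), HNRNPF (-0.78), HNRNPH1 (-0.46), HNRNPH2 (-0.74), HNRNPK (-0.86) and PTBP1 (-0.50). Upper-quartile factors gave 3 kinases higher, medians of -0.25, 0.19 and 0.18, and changed signs for SRPK2 (0.11), HNRNPA1 (0.16), HNRNPA2B1 (0.17), HNRNPA3 (0.18), HNRNPM (0.19, called higher) and HNRNPUL1 (0.18). These shifts follow from the construction of each scaling, which moves all genes alike.

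Members near 0 changed sign without being called. With recomputed median-of-ratios factors HNRNPA1 was at 0.0063, HNRNPA2B1 at 0.0096, HNRNPA3 at 0.019, HNRNPM at 0.032 and HNRNPUL1 at 0.019, and by DESeq2 they were at 0.0062, 0.0093, 0.019, 0.032 and 0.014. Over the fits that leave out a library, SRPK2 ran from -0.20 to 0.041, HNRNPA3 from -0.053 to 0.0059, HNRNPM from -0.035 to 0.0088 and HNRNPUL1 from -0.092 to 0.086; the signs changed without DMSO replicate 3 (SRPK2, HNRNPA3, HNRNPUL1), DMSO replicate 1 or compound 28 replicate 2 (HNRNPM) and compound 28 replicate 1 (HNRNPUL1), and the cause was not tested. Leaving out a library in turn gave 1 to 2 kinases higher (2 without DMSO replicate 3), and medians of -0.50 to -0.39 for SR proteins, -0.061 to 0.031 for kinases and -0.041 to -0.0053 for hnRNPs. The replicate numbers did not pair the libraries (correlations of deviations -0.0236, 0.0389 and 0.0665 across genes), and the replicate block gave 14 members higher and 16 lower, adding HNRNPU (-0.28). Depth limits SRSF12 alone, at 4 to 5 reads in DMSO.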
